A study of Arabidopsis thaliana with 28 samples.

Results

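The mRNAs of 34 genes for proteins of the cytosolic small (40S) ribosomal subunit of Arabidopsis thaliana were followed in nuclear and cytoplasmic RNA, and the genes were taken by their locus identifiers from a table of 30901 loci. The plants were Col-0, the wild type, and a mos11 mutant, a single labelled line each with no allele named, and no other genotype or treatment separated the groups. All RNA came from rosettes harvested at 14 days and split into fractions by differential centrifugation. The 4 groups were Col-0 nucleus with 4 libraries, Col-0 cytoplasm with 4, mos11 nucleus with 5 and mos11 cytoplasm with 5. The study asked about mRNA export defects in mos11. Nothing in the labels says whether libraries of a group came from separate plants or extractions, so the p-values below rest on the scatter among libraries that may be technical repeats.

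The 40S subunit carries the 18S rRNA and a fixed set of proteins, binds the mRNA, and reads its codons. In Arabidopsis each of these proteins is made from several near-equivalent genes, so a family's supply is the sum over its genes. Ribosomal protein mRNAs are among the most heavily translated messages of growing leaves, and translation takes place in the cytoplasm, while transcription and subunit assembly begin in the nucleus. MOS11, the gene affected in the mutant, encodes a nuclear protein related to the human export factor CIP29.

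The libraries held 2547560 to 3719008 counts in Col-0 nuclei, 556016 to 1160001 in Col-0 cytoplasm, 1966574 to 18213517 in mos11 nuclei and 907270 to 1280371 in mos11 cytoplasm. The targeted gene was checked first: MOS11 mRNA lay between 193 and 227 CPM in Col-0 nuclei, 86.4 and 126 in Col-0 cytoplasm, 158 and 183 in mos11 nuclei and 4.61 and 11.1 in mos11 cytoplasm. CPM are counts relative to the library total, here scaled by TMM factors, which adjust for library composition. All 6 rosette leaf markers were abundant, with summed levels of 65700 to 83600 CPM in Col-0 cytoplasm and 57000 to 64400 in mos11 cytoplasm. The sums for nuclei were 4990 to 5940 and 4730 to 5320 CPM. Root markers (3 genes) summed to between 8.49 and 18.1 CPM over all libraries, flower markers (3 genes) to at most 3.58 and seed storage markers (3 genes) to at most 2.42, with all seed markers at 0 counts in Col-0 cytoplasm. AP1 and AG, which define flowers, had no count in Col-0 cytoplasm.

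The 34 genes code for 27 of the protein families of the subunit, and 7 families were present with 2 genes each. RefSeq's own text places 28 of them in the cytosolic small subunit. Several are described there by the bacterial-type family, such as the S4 family for S9 and the S5 family for S2, and the S numbers used here are the eukaryotic ones. The genes lie on all 5 chromosomes, have 1 to 7 exons and span 661 to 1653 bases of exon in the TAIR10.1 annotation. Reads could be shared with paralogs only in part: 24 of 34 had no stretch of 50 bases in common with any other locus, and the highest share was 15.5% of such windows, in the S16 gene AT2G09990. Overlapping genes were annotated for 9 members, 4 on the same strand and 5 on the other, and since no source states the strand counted, reads cannot be assigned between those partners. The largest overlap was 11.3% of the exon bases, in the S12 gene AT2G32060.

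Of the 34 genes, 33 had enough counts to be tested. The exception was AT3G09680, a gene for S23, the protein at the decoding centre. It had 4 counts in all, every one of them in mos11 nuclei. A count of 0 over the group allows a level of up to 1.32 CPM in Col-0 cytoplasm, 0.725 CPM in mos11 cytoplasm and 0.169 CPM in Col-0 nuclei, for counting error only. The other S23 gene, AT5G02960, which is not among the 34, measured 304 ± 19.1 CPM in Col-0 cytoplasm (SD, n = 4) and 225 ± 33.1 in mos11 cytoplasm (SD, n = 5).

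Levels per length of exon spanned a wide range among the 33. In Col-0 cytoplasm the highest was AT5G20290, for S8, with 830 ± 68 CPM per kb (SD, n = 4), and it stood clear of the next gene in all 4 groups. Next came RPSAA (AT1G72370), for the SA protein, related to the laminin receptor precursor of animals, at 552 ± 43, and AT2G41840, for S2, at 519 ± 31 CPM per kb. The libraries of these 2 overlapped. Their rank depends on the length used: the S9 gene AT5G15200 measured 422 CPM per kb over all exons. With the length of its longest transcript it measured 569, above RPSAA and AT2G41840. At the low end were RPS15A (AT1G07770), for S15a, at 40.4 ± 6.6, the second S9 gene AT5G39850 at 26.1 ± 13 and the S27 gene AT2G45710 at 14.8 ± 5.9 CPM per kb. Among the 33 pairs of neighbours in the order of levels, which includes AT3G09680 at the bottom, 28 overlapped between libraries in each of the 4 groups, so most adjacent ranks are not separable.

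**Figure D1:**
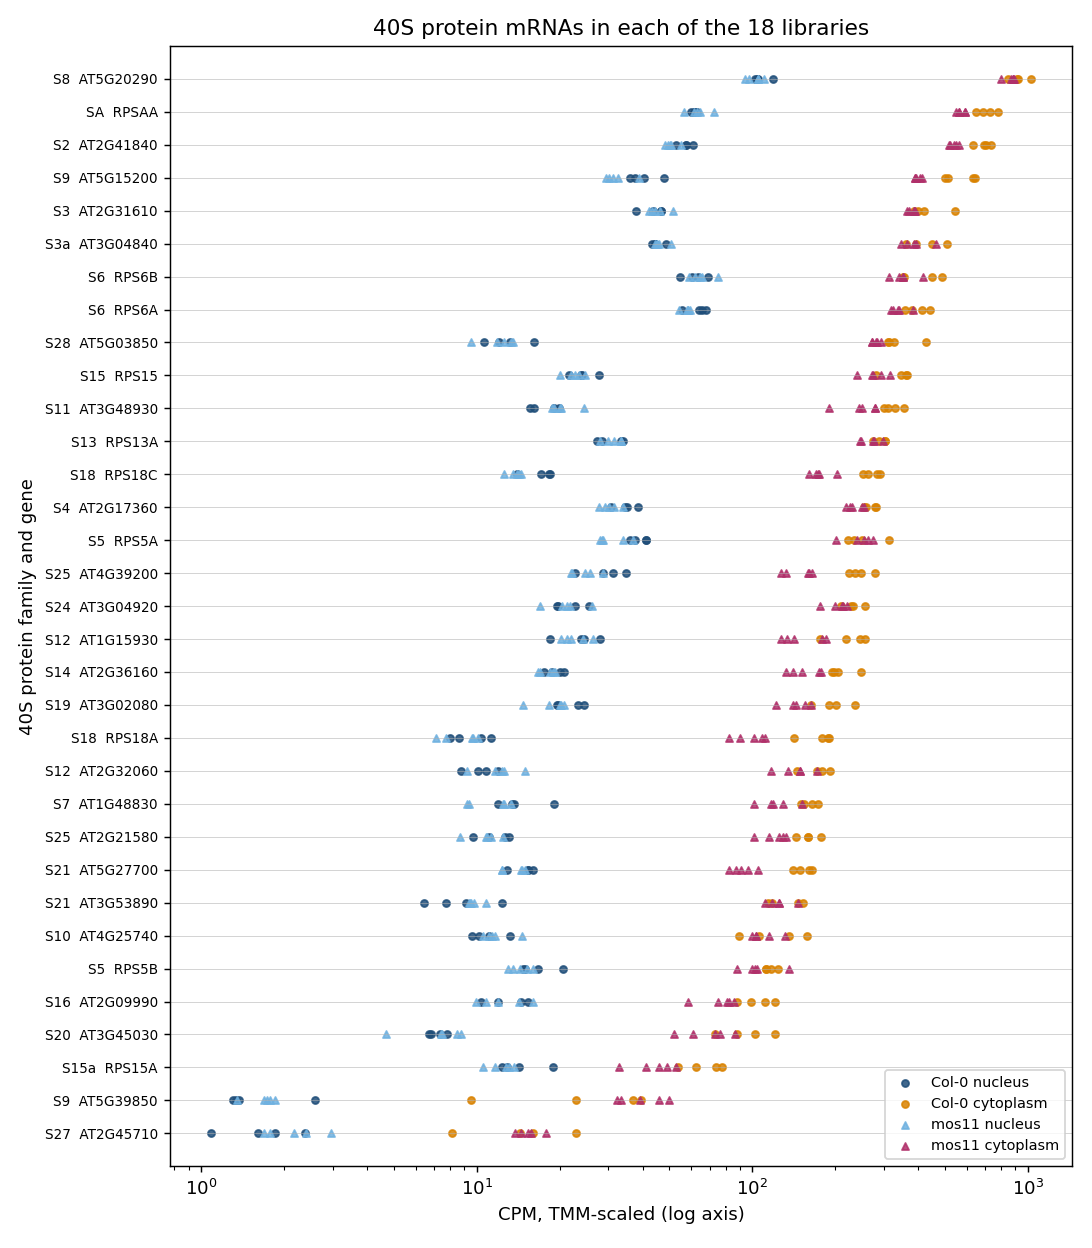
TMM-scaled CPM (log axis) of each of the 33 tested 40S genes in each of the 18 libraries, with genes in rows ordered by their mean in Col-0 cytoplasm, circles for Col-0 and triangles for mos11. For every gene all cytoplasmic libraries lie to the right of all nuclear libraries of the same genotype.

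All 33 tested members had more mRNA in the cytoplasm than in the nucleus, relative to the rest of each fraction's RNA. In Col-0 the median log2 fold change of nucleus over cytoplasm was -3.40, with a range from -4.73 to -2.19, and every member passed the test (edgeR quasi-likelihood, Benjamini-Hochberg adjusted over 16207 genes, threshold 0.05). Of all genes tested, 32.8% were called higher in the cytoplasm, and the median over all genes was 0.30. The 5888 tested genes with exon lengths in the range of the members had 52.6% called cytoplasmic and a median of -0.82. No nuclear library reached any cytoplasmic library of Col-0 in any of the 33, a separation seen in that direction in 27.6% of all genes. These are shares of the RNA in a fraction: more molecules of a gene and less RNA of other genes in that fraction cannot be told apart, nor, between genotypes, can fewer cells of a type and less RNA per cell.

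The steepest difference was in AT5G03850, for S28, a small protein beside the path where mRNA leaves the subunit. It measured 13.2, 10.6, 12 and 16.1 CPM in the 4 Col-0 nuclear libraries against 425, 314, 310 and 326 in the cytoplasmic ones. In mos11 it measured 13.3, 12.6, 11.8, 9.5 and 13.5 CPM in nuclei against 283, 272, 271, 281 and 292 in cytoplasm. The fractions are far apart in both genotypes, with log2 fold changes of -4.73 ± 0.15 in Col-0 and -4.51 ± 0.13 in mos11 (SE throughout for log2 values). AT3G48930, for S11, a protein of the subunit body, had 16.1, 19.9, 15.6 and 19.1 CPM in Col-0 nuclei against 355, 311, 301 and 328 in Col-0 cytoplasm. In mos11 it had 20, 18.7, 19, 20.2 and 24.4 in nuclei against 278, 249, 244, 190 and 279. Its log2 difference was -4.18 ± 0.14 in Col-0 and -3.62 ± 0.12 in mos11.

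RPS18A (AT1G22780), known as POINTED FIRST LEAF for the shape of its mutant's leaves, encodes S18, a protein of the subunit head that touches the tRNA. It measured 8.6, 8.01, 10.4 and 11.3 CPM in Col-0 nuclei and 189, 179, 142 and 188 in Col-0 cytoplasm. Its levels in mos11 were 7.73, 9.71, 9.62, 7.13 and 10.1 CPM in nuclei and 89.9, 82.3, 101, 108 and 111 in cytoplasm. The nuclear libraries of the genotypes overlap while the cytoplasmic ones do not. AT2G32060, for S12, a protein of the beak of the head, measured 10.8, 10.1, 8.76 and 11.9 CPM in Col-0 nuclei and 171, 179, 191 and 145 in Col-0 cytoplasm. Its mos11 nuclei held 12.3, 11.6, 12.6, 9.21 and 14.9 and its mos11 cytoplasm 172, 117, 149, 135 and 149. The log2 differences between fractions in Col-0 were -4.17 ± 0.16 for RPS18A and -4.04 ± 0.16 for AT2G32060.

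In Col-0 the smallest differences between fractions belonged to RPS15A and to genes of S6 and S5. RPS15A measured 12.9, 14.2, 18.9 and 12.3 CPM in Col-0 nuclei and 73.5, 77.8, 62.3 and 53.8 in Col-0 cytoplasm. In mos11 it measured 11.6, 13.1, 13.6, 12.8 and 10.5 in nuclei and 53, 32.7, 49, 41.1 and 45.9 in cytoplasm. It was the member with the smallest cytoplasmic excess in both genotypes, with log2 differences of -2.19 ± 0.19 and -1.82 ± 0.17, or 4.56-fold and 3.54-fold, and at 1653 bases also the longest.

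S6 is the 40S protein that is phosphorylated by S6 kinase under the growth regulator TOR, and both of its genes were among the 4 least shifted in Col-0. RPS6A (AT4G31700) measured 55.6, 65.9, 63.8 and 67.8 CPM in Col-0 nuclei against 441, 412, 358 and 380 in cytoplasm. In mos11 it had 58.5, 58, 59.4, 54.1 and 58.2 against 382, 319, 323, 339 and 341. RPS6B (AT5G10360) measured 54.8, 60.3, 69.3 and 63.3 against 353, 487, 447 and 355 in Col-0, and 64.3, 59.1, 65.6, 61.8 and 75.1 against 314, 341, 351, 353 and 417 in mos11. The pair lay close together in both genotypes, at -2.65 ± 0.11 and -2.72 ± 0.13 in Col-0 and -2.56 ± 0.098 and -2.45 ± 0.11 in mos11.

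S5 lies beside the mRNA exit path, and the promoter of RPS5A (AT3G11940) is widely used to drive transgenes in dividing plant cells. RPS5A measured 37.6, 41, 41.1 and 36 CPM in Col-0 nuclei and 233, 314, 249 and 222 in Col-0 cytoplasm. In mos11 it measured 28, 33.8, 37, 28.5 and 28.7 in nuclei and 254, 263, 274, 201 and 239 in cytoplasm. The log2 difference was -2.70 ± 0.13 in Col-0 and -2.96 ± 0.12 in mos11, so that in this gene, unlike the S28, S11, S18 and S15a genes above, the estimate was farther from zero in mos11. Its partner RPS5B (AT2G37270) had -2.81 ± 0.15 and -2.88 ± 0.13. In mos11 5 members outside the S15a, S6 and S5 families differed less between fractions than either S5 gene, the nearest to zero being AT4G39200, for S25, at -2.59 ± 0.13.

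In mos11 the median over the 33 members was -3.12, with a range from -4.51 to -1.82, and again all were called, against 35.3% of all genes called higher in the cytoplasm in mos11 and a median of 0.18. Among the members the Col-0 log2 difference between fractions rose toward zero with exon length, with Pearson's r of 0.51 and Spearman's rho of 0.45 over 33 genes. Over all 16207 genes the values were 0.39 and 0.45. In mos11 they were 0.34 and 0.34 among the members, and 0.38 and 0.42 over all genes. Genes are not independent replicates and share their libraries, so these are descriptions. Without scaling factors the median over all genes moved from 0.30 to 1.55 in Col-0 and from 0.18 to 1.30 in mos11. The members' distance from it was -3.70 and -3.69 in Col-0 and -3.30 and -3.30 in mos11. Scaling shifts all genes nearly alike, so these distances could hardly have changed.

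**Figure D2:**
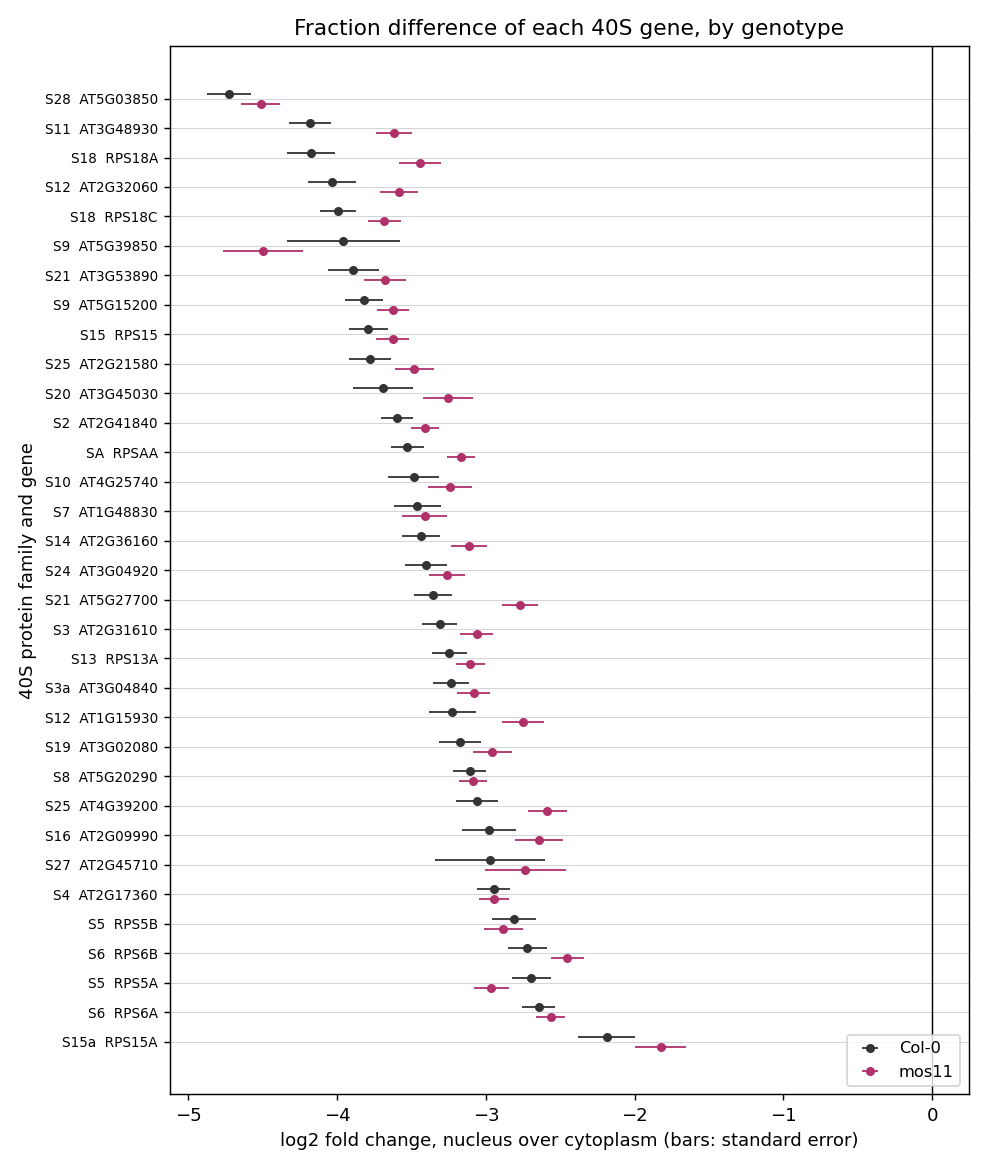
Log2 fold change of nucleus over cytoplasm (x axis, with standard errors) of the 33 tested 40S genes in Col-0 and mos11, ordered by Col-0. All points lie below zero, from AT5G03850 at -4.73 to RPS15A at -2.19 in Col-0.

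In the cytoplasm, 13 of the 33 members were lower in mos11 than in Col-0 and 0 were higher (edgeR, adjusted over all genes). The background was 6.40% of all genes called lower. An unadjusted edgeR p under 0.05 was found in 20 members and in 4249 of all 16207 genes. The median log2 fold change of the members was -0.30, against 0.04 over all genes and -0.12 over genes of the members' length range, of which 10.7% were called lower. In 14 members the mos11 libraries all lay below those of Col-0, which happened in 5.26% of all genes. The fold differences of those called ran from 1.24 to 1.76. DESeq2 called 17 lower and 0 higher, the added members being RPS15 (AT1G04270), AT1G48830, AT5G03850 and RPS6A. Among all genes DESeq2 called 1421 lower and 967 higher.

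The count depends on how the cytoplasmic libraries are scaled. TMM factors were 0.596 to 0.639 in Col-0 cytoplasm and 0.681 to 0.729 in mos11 cytoplasm, and as a plain share of counts the members took 0.533% to 0.611% and 0.505% to 0.563%, ranges that overlap. With library totals and no factors, the median over all genes moved from 0.04 to 0.24 and that of the members from -0.30 to -0.10, with 21 of 33 below zero in place of 31, leaving 5 called lower and 1 higher. All genes then split into 527 lower and 2027 higher, against 1038 and 976 with TMM. The members' distance from the median of all genes was -0.34 either way. A change of scaling shifts all genes by nearly the same amount, so this distance could hardly have moved. The lower calls that held were RPS18A, RPS18C, AT5G27700, AT4G39200 and AT5G15200, and the higher one was AT5G39850. The summed rosette markers also lay lower in mos11 cytoplasm, as given above, but not every marker did. LHCA3, CAB2, CAB3 and RBCS3B lay fully lower there. RBCS1A overlapped between genotypes, at 11700 to 16900 CPM in Col-0 cytoplasm and 12900 to 15200 in mos11 cytoplasm. RCA overlapped as well, at 13600 to 18100 and 15300 to 17100. The part of these markers in the members' result was not tested.

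Proteins of the subunit head that contact the tRNA included the largest decrease. RPS18A (chr1:8067864-8069356), with the cytoplasmic values above, was 1.76-fold lower in mos11, a log2 change of -0.82 ± 0.14 (edgeR adjusted p = 0.000209), and none of its libraries overlapped between genotypes. RPS18C (AT4G09800, chr4:6173712-6175200) measured 291, 262, 252 and 283 CPM in Col-0 cytoplasm against 170, 175, 173, 160 and 203 in mos11 cytoplasm. The groups are separate, and the log2 change was -0.63 ± 0.11 (edgeR adjusted p = 0.000249). In nuclei RPS18C had 14, 17.1, 18.3 and 18.5 CPM in Col-0 and 12.6, 13.5, 14.5, 14 and 14.2 in mos11, which overlap. Of the other head proteins at the tRNA, RPS15 had a change of -0.27 ± 0.11 and the S16 gene AT2G09990 of -0.42 ± 0.16, and neither was called (edgeR adjusted p = 0.117 and 0.0926).

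At the mRNA exit path and the neighbouring tRNA exit site, both S25 genes among the members were called. S25 is needed in yeast and human cells for initiation at certain viral internal entry sites. AT4G39200 (chr4:18257334-18258900) measured 224, 279, 236 and 247 CPM in Col-0 cytoplasm against 127, 132, 161, 159 and 164 in mos11. These groups are far apart, at -0.72 ± 0.13 on the log2 scale (edgeR adjusted p = 0.000387). In nuclei it measured 28.8, 22.7, 31.2 and 34.8 in Col-0 and 25.8, 24.7, 22.2, 22 and 28.7 in mos11, with overlap. AT2G21580, the other S25 member, changed by -0.41 ± 0.12 (edgeR adjusted p = 0.0278), and AT2G36160, for S14, by -0.43 ± 0.12 (0.0162). A further S25 gene, AT4G34555, is not among the 34. It measured 47.1 ± 16.8 CPM in Col-0 cytoplasm (SD, n = 4) and 34 ± 6.24 in mos11 cytoplasm (SD, n = 5). AT5G03850, for S28, was at -0.30 ± 0.12 and not called by edgeR (adjusted p = 0.0987), although its cytoplasmic libraries did not overlap. The S5 pair was near zero, at -0.04 ± 0.12 for RPS5A and -0.14 ± 0.14 for RPS5B.

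The mRNA entry channel is lined by S2, S3 and S9. AT5G15200, the main S9 gene (chr5:4934810-4936429), fell by 0.52 ± 0.11 on the log2 scale (edgeR adjusted p = 0.00214), and AT2G41840, for S2, by 0.36 ± 0.091 (0.00806). AT2G31610, for S3, which in animals also acts in DNA repair, was at -0.19 ± 0.11 and not called (edgeR adjusted p = 0.275). Cytoplasmic libraries of the S2 gene ran from 634 to 734 CPM in Col-0 and 515 to 562 in mos11, without overlap.

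S21 is a small eukaryote-specific protein, and its gene AT5G27700 (chr5:9807236-9808513) measured 141, 161, 164 and 149 CPM in Col-0 cytoplasm against 91.1, 87.1, 96.5, 82.2 and 105 in mos11. The genotypes are separate, and the log2 change was -0.73 ± 0.12 (edgeR adjusted p = 0.000209). Its nuclear levels were 12.9, 16, 15.3 and 15.3 in Col-0 and 15, 12.3, 12.3, 14.6 and 14.5 in mos11, which overlap. RPS15A (chr1:2407411-2409791), for S15a, was the fifth largest decrease, at -0.58 ± 0.18 (edgeR adjusted p = 0.0374), with all its mos11 cytoplasmic libraries below those of Col-0. That call is less firm than the others of the first 5: it was lost on leaving out any of 6 single cytoplasmic libraries (Col-0 replicates 1, 2 or 3, mos11 replicates 2, 4 or 5), with log2 changes of -0.66 to -0.48 over all omissions.

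The other called members were AT1G15930, for S12, at -0.54 ± 0.14, AT3G02080, for S19, at -0.44 ± 0.13, AT3G48930, for S11, at -0.39 ± 0.12, and RPSAA at -0.32 ± 0.094. S19 is the protein most often affected in the human anaemia of Diamond and Blackfan. Their edgeR adjusted p values were 0.0116, 0.0234, 0.0321 and 0.0258. The members without a call included both S6 genes at -0.22 ± 0.10 and -0.20 ± 0.12, and the S8 gene AT5G20290, the most abundant, at -0.10 ± 0.093. Just short of zero were AT3G53890, for S21, at -0.08 ± 0.14, the gene AT3G04840 of S3a, a platform protein near the mRNA exit, at -0.12 ± 0.11 and RPS13A (AT4G00100), for S13, whose bacterial counterpart binds the central domain of the rRNA early in assembly, at -0.12 ± 0.11. AT3G45030, for S20, at -0.41 ± 0.17, and AT1G48830, for S7, at -0.38 ± 0.14, were not called although their estimates lay within the range of the called genes (edgeR adjusted p = 0.124 and 0.0897). Closer to zero lay AT2G17360, for S4, at -0.19 ± 0.10, AT3G04920, for S24, at -0.18 ± 0.12, and AT4G25740, for S10, which like S12 sits at the beak, at -0.16 ± 0.15. A missed threshold at these standard errors does not show that they were unaffected. The estimates above zero belonged to 2 members, AT2G45710, for S27, at 0.11 ± 0.31, and AT5G39850, and both are among the least abundant.

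Under the omission of each library in turn, 6 of the 13 members kept their call throughout: RPS18A, RPS18C, AT5G27700, AT4G39200, AT5G15200 and AT1G15930. Besides RPS15A, 6 lost it in some omissions of a cytoplasmic library, always with the same sign. AT2G41840 lost it without mos11 replicate 4, and AT2G36160 without Col-0 replicate 2 or mos11 replicate 4, with changes of -0.39 to -0.32 and -0.47 to -0.35 over all omissions. AT3G02080 lost it without Col-0 replicates 3 or 4 or mos11 replicate 2 (-0.53 to -0.34). AT2G21580 lost it without Col-0 replicates 1, 3 or 4 or mos11 replicates 2 or 3 (-0.45 to -0.35). AT3G48930 lost it without Col-0 replicates 1 or 4 or mos11 replicates 2, 3 or 4 (-0.43 to -0.28), and RPSAA without Col-0 replicates 1 or 2 or mos11 replicates 1, 4 or 5 (-0.35 to -0.27). Leaving out mos11 cytoplasm replicate 4 lowered the number of members called to 8, and the other single omissions left 9 to 13. Summed over the 34 genes, the level was 9278 ± 490 CPM in Col-0 cytoplasm (SD, n = 4, from 8742 to 9778) and 7543 ± 248 in mos11 cytoplasm (SD, n = 5, from 7337 to 7964).

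**Figure D3:**
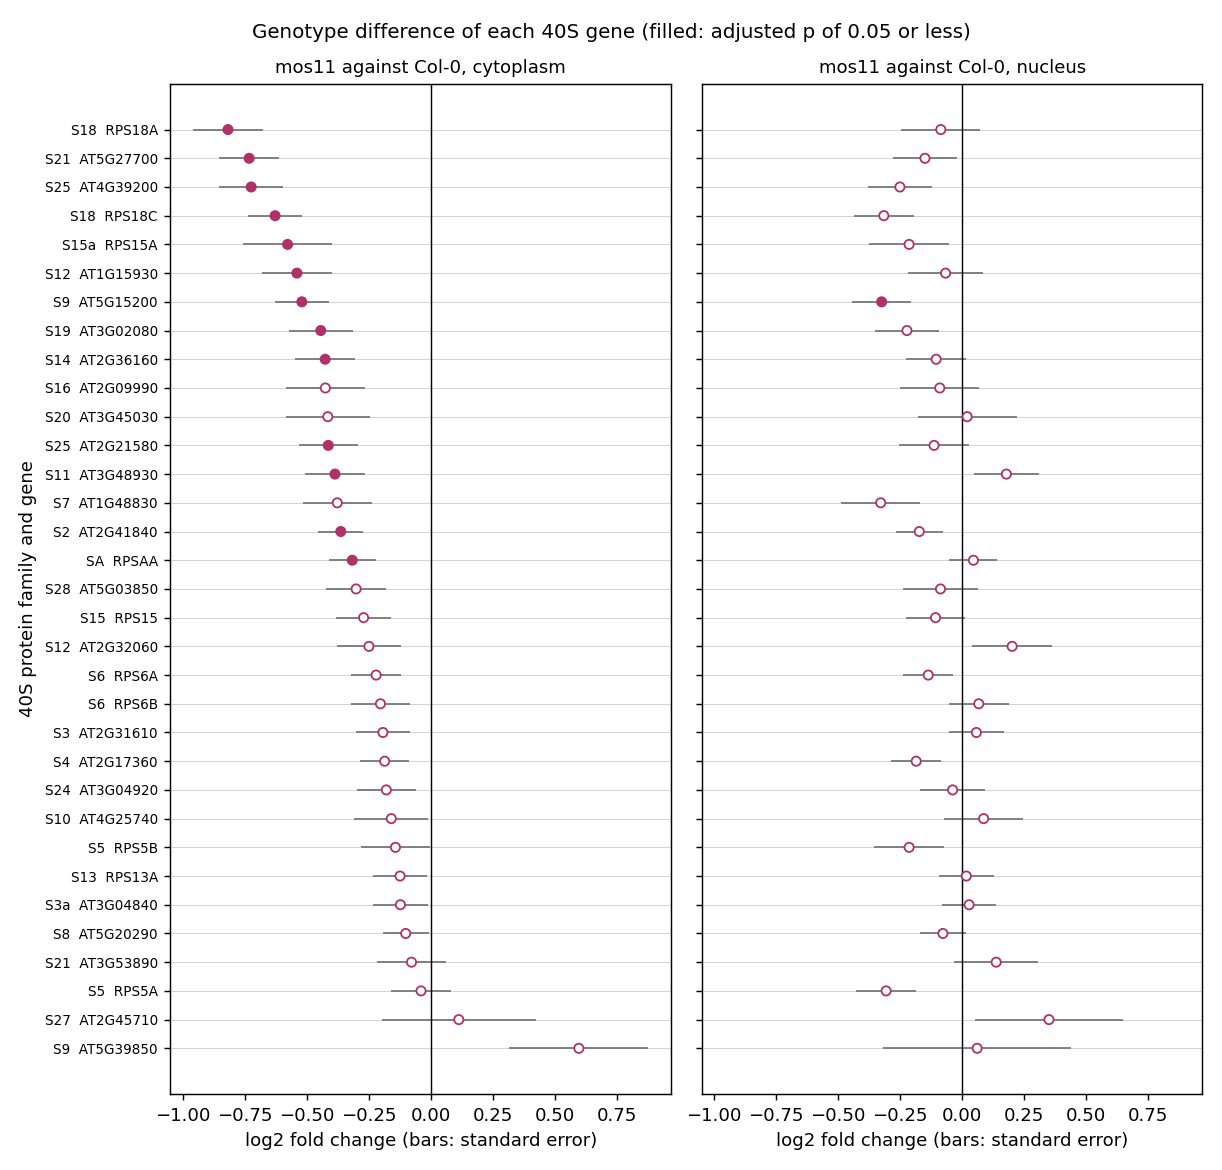
Log2 fold change of mos11 over Col-0 with standard errors for the 33 tested 40S genes, in the cytoplasm (left) and in the nucleus (right), ordered by the cytoplasmic value, with filled points for genes called at an adjusted p of 0.05 or less. In the cytoplasm 13 are filled and 31 lie below zero (21 with library totals in place of TMM), and in the nucleus 1 is filled and 21 lie below zero.

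In the nucleus 1 member of 33 was called, lower in mos11, against a background of 20.1% of all genes called in either direction. This was AT5G15200, for S9, with 37.6, 36.1, 47.6 and 40.6 CPM in Col-0 nuclei and 32.6, 30.2, 31.3, 29.4 and 38.9 in mos11 nuclei. The groups overlap by mos11 replicate 5, and the log2 change of -0.32 ± 0.12 sat at the threshold (edgeR adjusted p = 0.05). It lost its call under 18 of 25 alternatives, among them the omission of any mos11 nuclear library but replicate 5 and of Col-0 nuclear replicates 1, 3 or 4, over which the change stayed between -0.39 and -0.24. Its cytoplasmic levels were 633, 645, 500 and 512 CPM in Col-0 and 413, 393, 406, 390 and 390 in mos11, with no overlap. DESeq2 also called 1 member, and among all genes 2071 lower and 1672 higher. The median over the members was -0.09, against -0.07 over all genes. None of the 33 separated the genotypes completely in the nucleus. Of all genes, 13.3% lay fully lower and 9.4% fully higher in mos11 nuclei. Summed over the 34 genes, nuclei held 908.9 ± 51.7 CPM in Col-0 (SD, n = 4) and 860 ± 36 in mos11 (SD, n = 5).

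A genotype difference of the nucleus over cytoplasm ratio was called in 0 of the 33 members by edgeR, against 1.58% of all genes in either direction. An unadjusted edgeR p under 0.05 was found in 7 members and in 2434 of all 16207 genes. DESeq2 called 4, all with a higher ratio in mos11: RPS18A, RPSAA, AT5G27700 and AT3G48930. Among all genes DESeq2 called 312 with a higher ratio in mos11 and 276 with a lower one. The median estimate was 0.24 against -0.09 over all genes, and 3 members were below zero: RPS5A, RPS5B and AT5G39850. Over tested genes of the members' length range the median was 0.07, with 43.7% below zero against 57.5% of all genes. Of the genes in that range edgeR called 71 with a higher ratio in mos11 and 6 with a lower one. The largest estimates were 0.73 ± 0.21 in RPS18A, 0.58 ± 0.18 in AT5G27700 and 0.56 ± 0.18 in AT3G48930 (edgeR adjusted p = 0.0785, 0.0967 and 0.113). The lowest was -0.54 ± 0.48 in AT5G39850. So a cytoplasmic decrease passed the test in 13 members, and a decrease that differed from that in the nucleus was not shown for any of them by edgeR. Leaving out Col-0 cytoplasm replicate 3 gave 1 call, RPS18A.

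Where 2 genes of a family were among the members, they could be set beside each other. The S18 and S25 families each have a further gene outside the 34, which the pair shares below leave out. The S9 pair was the most uneven. Per kb of exon, AT5G15200 measured 422 ± 57 CPM in Col-0 cytoplasm and AT5G39850 26.1 ± 13 (SD, n = 4). AT5G39850 (chr5:15949910-15951475) had 36.8, 23, 9.49 and 39.4 CPM in Col-0 cytoplasm, from 23, 8, 7 and 22 counts, and 33.4, 46, 32.2, 50 and 39.2 in mos11 cytoplasm. In nuclei it had 1.34, 1.3, 1.37 and 2.59 CPM in Col-0 and 1.69, 1.86, 1.73, 1.78 and 1.35 in mos11. The cytoplasmic groups overlap, with Col-0 replicate 3 lowest. Its cytoplasmic log2 change was 0.60 ± 0.28 (edgeR adjusted p = 0.166), against -0.52 for AT5G15200, a difference of -1.12 between the genes that was not tested. Without Col-0 cytoplasm replicate 3 the estimate was 0.24, and with library totals it was 0.80 and called (adjusted p = 0.0467). The share of AT5G15200 in the pair was 95.5% ± 2.3 in Col-0 cytoplasm and 90.8% ± 1.8 in mos11 cytoplasm, as 92.9% to 98.1% and 88.6% to 92.7%.

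The S21 pair shifted as well. AT3G53890 made up 46.3% ± 4.8 of the pair's CPM in Col-0 cytoplasm, between 41% and 52.2%, and 57.5% ± 1.5 in mos11 cytoplasm, between 55% and 58.9%. The ranges do not touch. In nuclei the shares were 37% ± 5.2 and 41.7% ± 2.5 and overlapped. Of the S25 pair AT2G21580 made up 39.4% ± 4.2 and 44.8% ± 4 in the cytoplasm of Col-0 and mos11, and 28.7% ± 5.3 and 30.6% ± 3.4 in nuclei. Of the S12 pair AT1G15930 held 56.4% ± 5.5 and 51.4% ± 4.7 in cytoplasm and 69.2% ± 5.4 and 65.4% ± 2.1 in nuclei. For S12 and S25 the means differed more between fractions than between genotypes, while the pairs of S5, S6 and S18 kept shares between 29.9% and 31.7%, 47% and 50.6%, and 35.8% and 39.1% in all 4 groups. Errors are SDs over 4 libraries in Col-0 and 5 in mos11, and all of these shares are descriptions without a test.

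**Figure D4:**
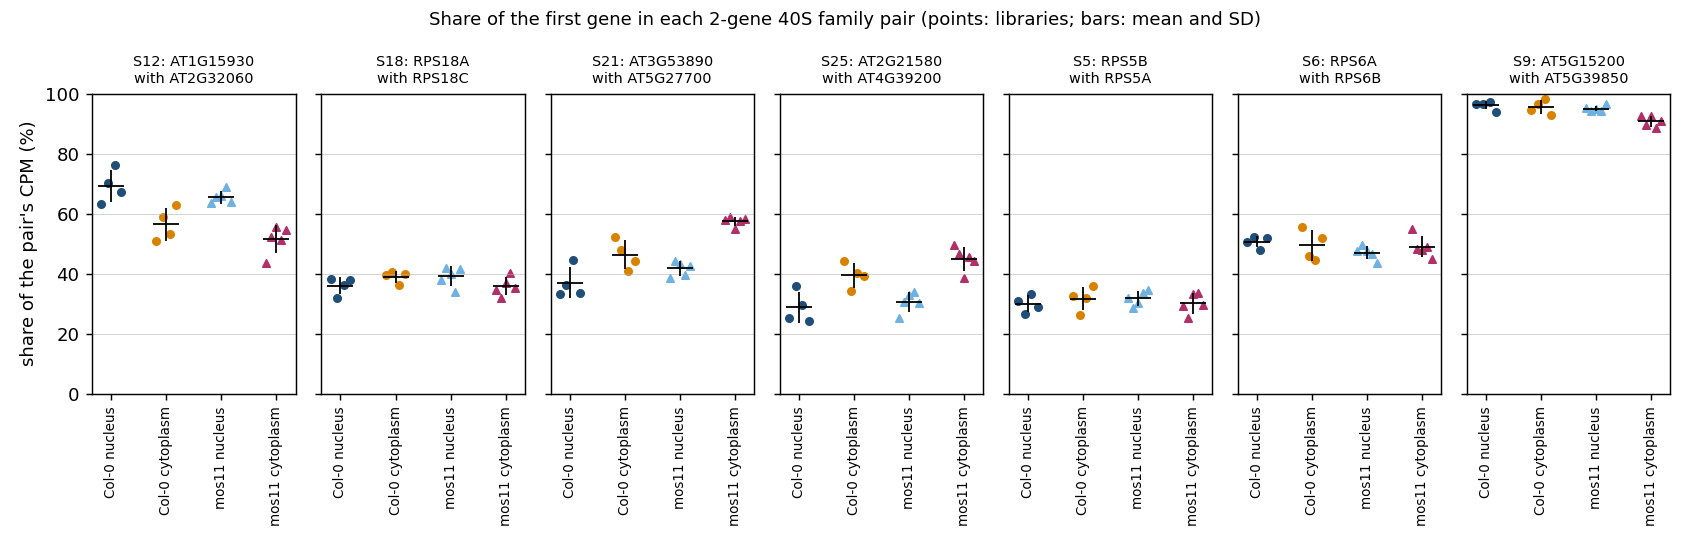
Share (y axis, percent of the pair's CPM) of the first-named gene in each of the 7 family pairs, with a point per library and bars for the mean and SD in each of the 4 groups. In S21 the mos11 cytoplasmic libraries, at 55% to 58.9%, lie above those of Col-0, at 41% to 52.2%.

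The stretches of 250 bases before the annotated starts were read for the S9 pair, the most uneven in level, and for the S18 pair, in which both genes fell in mos11 cytoplasm. These were chosen after the values were seen. Sequences are from the RefSeq TAIR10.1 genome, in the direction of transcription, and capitals mark the telo box (AAACCCTA) and the site II element (TGGGCC or TGGGCT) on either strand, motifs long known from promoters of plant ribosomal protein genes.
AT5G15200, chr5:4936430-4936679, minus strand: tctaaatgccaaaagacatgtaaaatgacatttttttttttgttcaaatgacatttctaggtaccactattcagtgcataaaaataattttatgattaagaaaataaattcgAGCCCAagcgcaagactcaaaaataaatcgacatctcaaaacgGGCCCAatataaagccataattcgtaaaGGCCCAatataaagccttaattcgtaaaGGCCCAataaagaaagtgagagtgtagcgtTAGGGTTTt
AT5G39850, chr5:15949660-15949909, plus strand: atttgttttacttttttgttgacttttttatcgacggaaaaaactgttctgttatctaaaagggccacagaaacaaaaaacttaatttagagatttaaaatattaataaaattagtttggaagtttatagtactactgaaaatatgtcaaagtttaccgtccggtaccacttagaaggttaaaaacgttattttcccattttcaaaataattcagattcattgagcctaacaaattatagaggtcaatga
RPS18A, chr1:8067614-8067863, plus strand: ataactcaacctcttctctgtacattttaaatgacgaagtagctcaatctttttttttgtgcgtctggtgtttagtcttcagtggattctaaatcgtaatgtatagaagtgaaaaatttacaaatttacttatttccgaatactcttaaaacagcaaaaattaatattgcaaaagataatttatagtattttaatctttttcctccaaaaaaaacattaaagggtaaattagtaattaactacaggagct
RPS18C, chr4:6173462-6173711, plus strand: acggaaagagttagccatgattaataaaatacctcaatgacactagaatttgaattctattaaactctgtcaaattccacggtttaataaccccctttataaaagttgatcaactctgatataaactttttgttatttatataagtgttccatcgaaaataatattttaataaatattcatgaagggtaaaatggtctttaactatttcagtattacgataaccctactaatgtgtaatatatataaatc

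The abundant S9 gene AT5G15200 holds 1 telo box and 4 site II elements in this window, and AT5G39850 none. Neither gene of the S18 pair holds any. In the S5 pair RPS5A has 1 telo box and 2 site II elements and RPS5B none. The nearly uncounted S23 gene AT3G09680 also holds 1 telo box and 2 site II elements, and the low S27 gene AT2G45710 holds 3 site II elements. Whether the motifs go with mRNA level was not tested. Over the 34 members, 20.6% of the windows hold a telo box and 67.6% a site II element, and 26.5% hold neither. Among the other 54 cytosolic 40S genes the shares are 11.1% and 63.0%, and among 27418 protein-coding loci counted in the study 4.48% and 19.2%. A match is a run of letters and no evidence of binding, and in RPS5A the telo box and the nearer site II element share 1 letter.

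The 34 genes are a part of the subunit's 88 genes considered, which sum into 32 families. Summed in this way, 31 of 32 families were lower in mos11 cytoplasm than in Col-0 cytoplasm, with a median ratio of 0.804, and with library totals in place of TMM 23 of 32 were, with a median of 0.923. The lowest ratio was 0.607, in S18, from 634 ± 56.7 to 385.1 ± 16.5 CPM. The S25 family followed at 0.667, from 453.5 ± 23.8 to 302.7 ± 24.9. The exception was S27a, a protein made as a fusion with ubiquitin, at 1.52. That family was represented by AT1G23410 alone, a low gene at 11 ± 9.15 CPM in Col-0 cytoplasm and 16.74 ± 4 in mos11 cytoplasm that overlaps another gene on the other strand. The S27a genes UBQ5 and UBQ6 were left out because their RefSeq product names give only ubiquitin, so the ratio is not that of the whole family. In the S21 and S9 families, covered fully by the members here, the ratios were 0.758 and 0.731, and in S5 and S6, also covered fully, 0.949 and 0.861. The nuclear ratios had a median of 0.983, from 0.811 in S9 to 1.42 in S27a, with 19 of 32 below 1. With S23 summed over both of its genes, its cytoplasmic ratio was 0.74.

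**Figure D5:**
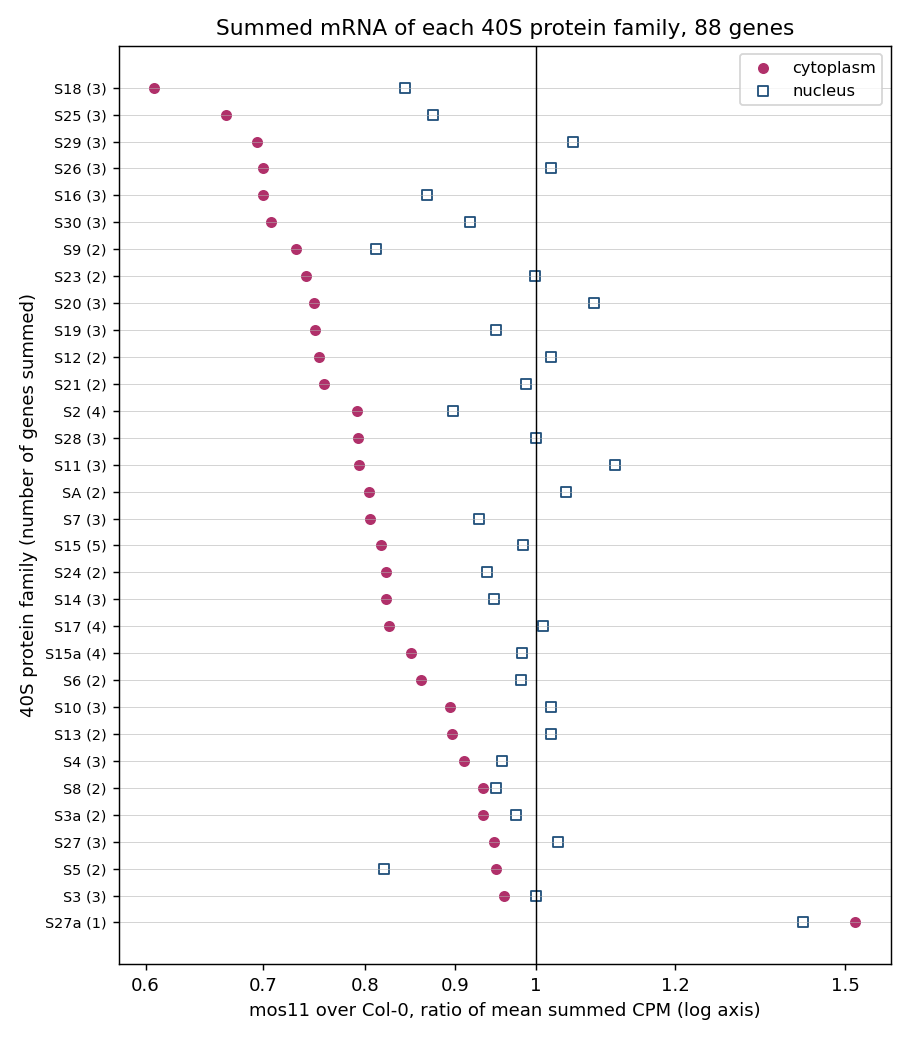
Ratio of mos11 to Col-0 (log axis) of the mean summed CPM of each of 32 families of 40S proteins in the cytoplasm (filled circles) and the nucleus (open squares), with the number of genes summed in parentheses. In the cytoplasm 31 families lie below 1 (23 with library totals in place of TMM), from S18 at 0.607, and S27a lies at 1.52.

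The other genes of the same machinery were read from lists of known genes or from the annotation text. As background for these lists, 32.8% of all genes tested were called cytoplasmic in Col-0 and 35.3% in mos11. In mos11 cytoplasm 6.40% were called lower and 6.02% higher, and in mos11 nuclei 10.9% lower and 9.14% higher. An unadjusted edgeR p under 0.05 was found in 4249 of 16207 genes in the cytoplasm and in 5119 in the nucleus. Of the other 54 cytosolic 40S genes 48 were tested and 47 were called cytoplasmic in each genotype. In the cytoplasm 11 (22.9%) were lower in mos11 and 0 higher by edgeR (19 with an unadjusted p under 0.05), with a median of -0.29, close to the -0.30 of the members. AT4G29390, for S30, changed by -0.77 ± 0.15, AT1G34030, for S18, by -0.74 ± 0.13, AT3G56340, for S26, by -0.57 ± 0.12 and AT5G18380, for S16, by -0.53 ± 0.10 (edgeR adjusted p = 0.00138, 0.000484, 0.00248 and 0.00121). All 3 genes of the S18 family were therefore lower. AT3G56340 was also the only 1 of these 48 with a called ratio difference, 0.80 ± 0.18 (edgeR adjusted p = 0.0225), a share of 2.08% against 1.58% of all genes. In the nucleus 0 of the 48 were called by edgeR and 1 had an unadjusted p under 0.05.

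The list of genes whose annotation names a large subunit protein also holds some plastid ribosomal proteins such as PRPL35. It holds entries that are not ribosomal proteins as well, such as AT5G53920, an L11 methyltransferase-like protein. Among its 182 tested genes 45 (24.7%) were lower and 0 higher in mos11 cytoplasm, with a median of -0.24. The 4 with the smallest p there were emb1473, AT3G54210, emb2184 and PRPL35. Their product names, for L13, L17, L31 and L35, state no compartment, so these 4 cannot be taken as cytosolic. The shares are therefore not those of the cytosolic large subunit alone. In the nucleus 12 were lower, or 6.59%, which is below the share over all genes. The 3 genes of RACK1, a protein docked on the 40S head, were all called cytoplasmic in both genotypes, with ATARCA (AT1G18080) at 742 ± 50.2 CPM in Col-0 cytoplasm and 614 ± 21.5 in mos11 cytoplasm. None of the RACK1 genes was called between genotypes by edgeR, and 1 had an unadjusted p under 0.05 in each fraction. Of 4 genes for organelle small subunit proteins, PRPS20 and AT2G21290 were lower in mos11 cytoplasm at log2 changes of -0.58 ± 0.11 and -0.73 ± 0.22 (edgeR adjusted p = 0.000491 and 0.0258).

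The genes of the kinases that act on S6 were higher in mos11. S6K2 (AT3G08720) measured 12 ± 2.49 CPM in Col-0 cytoplasm (SD, n = 4) and 32.9 ± 7.27 in mos11 cytoplasm (SD, n = 5), a log2 change of 1.40 ± 0.28 (edgeR adjusted p = 0.00121). The first S6 kinase gene, named PK1 by RefSeq (AT3G08730), rose from 54.2 ± 15.7 to 119 ± 26 CPM, by 1.17 ± 0.19 (edgeR adjusted p = 0.000103). Both also rose in the nucleus, by 0.70 ± 0.14 and 0.47 ± 0.13 (edgeR adjusted p = 0.000524 and 0.0112). TOR itself fell in the nucleus by 0.27 ± 0.088 (edgeR adjusted p = 0.0289). These S6 kinase genes neighbour each other on chromosome 3, and how far they share sequence was not measured here.

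Of 13 tested genes for nucleolar and assembly factors of the 40S subunit, 0 were called between genotypes in the cytoplasm by edgeR, with 3 at an unadjusted p under 0.05. In the nucleus RID2, a methyltransferase of 18S rRNA, was called at 0.53 ± 0.19 (edgeR adjusted p = 0.05). Of the 13 genes, 6 (46.2%) were called cytoplasmic in Col-0 and 7 (53.8%) in mos11. The fibrillarin gene FIB1 had the smallest p in both, at -2.80 ± 0.12 and -2.89 ± 0.10. In Col-0 the difference was larger in FIB2, at -3.06 ± 0.26, which had -2.68 ± 0.20 in mos11.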

How the data were processed

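Nuclear and cytoplasmic rosette RNA was profiled in 28 labelled runs of 18 libraries on 2 flow cells. The authors deposited raw counts per locus, 1 column per library, with 0 columns left unmapped; the strand counted, and whether flow cells were summed, are not stated. Tools listed in the submitters' processing notes, without their roles, are featureCounts, UMI-tools, Picard and STAR 2.7.8a, and the build is TAIR10. A spike-in set was added per the labels but not used here. The deposited counts were fitted by edgeR 4.0.16 under R 4.3.3 (4 groups, 18 libraries, TMM, filterByExpr, quasi-likelihood tests, Benjamini-Hochberg over 16207 genes). Standard errors are approximate: each log2 fold change was divided by the root of its F statistic. CPM use the TMM factors. Precision follows depth, which is lowest in Col-0 cytoplasm at 556016 counts, and counting intervals cover counting error only.

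The members, gene lists and tests were chosen with earlier results of these data known. Values in every library are given for the 4 members most and the 4 least shifted to the cytoplasm in Col-0, members called between genotypes (beyond 10, the 5 largest in each direction), and pairs whose log2 changes differ by over 1. Of other lists up to 4 genes with the smallest p are named. The script was checked on simulated counts. Replicates differed by 1.16 to 11.8 times the sampling variance over 32 pairs, so none was treated as a copy. Replicate numbers were taken to pair the fractions of Col-0, since residuals of same-numbered libraries correlated at 0.11 to 0.33. The correlations were 0.015 to 0.053 between the fractions of mos11, -0.09 to 0.10 between genotypes in nuclei and -0.02 to 0.036 in cytoplasm. The reported fits hold no term for this pairing, and the replicate block was run only as an alternative. DESeq2 1.42.0, other scalings, no filter, a 1.5-fold threshold, a replicate block, separate fits and the omission of each library were the alternatives. Names, positions and sequences come from RefSeq TAIR10.1.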

Additional observations from a re-analysis of the deposited data

Results flagged for a closer look

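Of 132 sets of libraries (33 members in 4 groups), 7 had a library far from the others, where chance gives about 1 in 20. In mos11 nuclei, replicate 5 was highest for AT3G04840 (S3a) at 50.7 CPM, the next being 45.7, and for AT3G48930 (S11) at 24.4, the next being 20.2. In the same group, replicate 4 was highest for AT4G25740 (S10) at 14.6 CPM against 11.6, and lowest for RPS6A at 54.1 against 58. In Col-0 cytoplasm, replicate 1 was highest for AT5G03850 (S28) at 425 CPM against 326. In mos11 cytoplasm, replicate 1 was lowest for AT5G20290 (S8) at 801 CPM against 870. In Col-0 nuclei, replicate 4 was highest for AT5G39850 (S9) at 2.59 CPM against 1.37, from 13 counts. No library accounts for more than 2 of these.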

How the results depend on the processing

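The 33 cytoplasmic calls in each genotype held under every alternative run, except that a fit of only the Col-0 groups tested 32 and called 32, and the log2 difference of the 8 members given in full kept its sign and call in all alternative fits. In mos11 cytoplasm 13 members were lower; the count was 6 with library totals (5 lower, 1 higher) and 0 against a change of 1.5-fold, 9 with no filter, 9 with only the groups compared, 13 with RLE scaling and 17 with DESeq2. Over omissions of single libraries it ran from 8 to 13. In the nucleus the count of 1 became 0 with RLE scaling, library totals, no filter, a 1.5-fold threshold and only the groups compared, and ran from 0 to 2 over omissions. For the ratio difference DESeq2 gave 4 calls in place of 0, and omissions gave 0 to 1. Replicate number as a block gave 33 calls in Col-0 and 33 in mos11 between fractions, 0 in the nucleus in place of 1, 13 in the cytoplasm (12 shared with the main 13) and 0 for the ratio difference; the block moved no other count of calls. Only the fractions of Col-0 were taken as paired, and the reported fits did not use that pairing. Levels per kb moved by more than 1 SD with the longest transcript in place of all exons in 4 of 34 members. Leaving out a single library cannot move the mean of a pair share by 1 SD, so for the shares that check decides nothing. Cytoplasmic libraries held 556016 to 1280371 counts, and the standard errors there were largest for AT2G45710 and AT5G39850, at 0.31 and 0.28. For AT5G39850 the lowest Col-0 cytoplasmic count, 7 in replicate 3, came from the deepest library of that group, at 1160001 counts.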

Other observations

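The coefficient of variation between libraries was examined for the 33 tested members. Its median was 12.4% in Col-0 nuclei, 11.8% in Col-0 cytoplasm, 11% in mos11 nuclei and 10.8% in mos11 cytoplasm. The highest value was 51.5%, in AT5G39850, the minor S9 gene, in Col-0 cytoplasm. Among members the exon count and the Col-0 fraction difference had a Pearson's r of 0.34 and a Spearman's rho of 0.35 over 33 genes, and the mean level and the same difference of -0.02 and -0.01, both given as descriptions over genes that share their libraries.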
